A study of Homo sapiens with 16 samples.

Results

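Described here are 40 human genes that answer unfolded protein in the cell or a shortage of amino acids. They were taken from a list by symbol under a rule that has no threshold on measured values. The list was drawn up with earlier results of these data known, so counts over it are not those of a blind choice. The genes form 2 arms. The ATF4 arm holds 23 genes, which are ATF4 and partner factors, stress effectors, enzymes of serine, folate and asparagine metabolism, amino acid transporters and tRNA synthetases. The endoplasmic reticulum (ER) arm holds 17 genes, which are the factors XBP1 and ATF6, chaperones, disulphide isomerases, secreted stress proteins and genes of ER-associated degradation. A row of the array table counted for a gene when it was annotated to that gene alone, and where a gene had several rows the one with the highest mean over the 16 arrays stood for it. On that rule 39 of the 40 genes had a row, out of 18417 genes in all, and all 39 were among the 12978 genes left by a filter on low values. PDIA3, an ER disulphide isomerase, appeared only in rows that it shared with another gene and has no value here, so the ER arm is given over 16 genes.

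RNA from 16 untreated, growing cultures of 3 established cell lines was measured on Affymetrix Human Gene ST arrays, with 1 array per culture. The cultures differ in STAG2, a subunit of cohesin, the ring that holds sister chromatids together. H4, labelled as glioblastoma cells, was represented by its STAG2-mutant parental population and the non-recombinant STAG2-mutant clones 10 and 12, and by the post-Cre knock-in clones 8-1, 8-3 and 88-1, in which STAG2 is labelled corrected. 42MGBA, also labelled as glioblastoma cells, was represented by its STAG2-mutant parental population and the pre-Cre knock-in clones 53 and 92, labelled STAG2-deficient, and by the post-Cre knock-in clones 53-1, 53-7 and 92-6, labelled corrected. Clones 53-1 and 53-7 carry the number of clone 53, and 92-6 carries that of clone 92, as H4 clones 8-1 and 8-3 share the number 8. HCT116, a colorectal cancer line, was represented by the non-recombinant clones 24 and 27, which are STAG2 wild-type, and the knockout clones 7 and 21. Apart from the parental populations every array is 1 clone, so any difference between clones is part of every comparison. The p-values cover no more than the spread among these cultures, which the labels do not call independent experiments, and the small number of arrays limits the precision. In extracts of whole cultures, fewer cells that express a gene and less RNA of it per cell cannot be told apart.

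The unfolded protein response tells the nucleus that misfolded protein has gathered in the ER. Its sensor IRE1 splices the mRNA of XBP1, and ATF6 is cut free from the membrane; both proteins then switch on chaperones, disulphide isomerases and the machinery that hands failed proteins to the proteasome. The sensor PERK, like the kinases that detect a lack of amino acids, phosphorylates the initiation factor eIF2, which slows translation in general but favours that of ATF4. ATF4 in turn activates genes that make, import and load amino acids onto tRNA, a programme that tumour cells also use to sustain growth.

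Some genes of each arm hold the letters of a known response element near a start site, and windows with such a match are shown first. RefSeq promoter windows of assembly GRCh38.p14, from 250 bases before to 50 after a transcription start, were at hand for 36 of the 40 genes in 54 windows. The core of the amino acid response element, the composite site read by ATF4 and C/EBP factors, was searched on both strands as TGATGNAAN. It was found in 7 of 20 genes of the ATF4 arm with a window (ASNS, ATF3, CHAC1, GARS1, MARS1, SLC3A2 and SLC7A1) and in 1 of 16 of the ER arm, and 4.45% of all genes of the table, or 3.61% of its 35116 windows, hold it. The 4 of these windows below show matches that lie before the start, together with the ER arm gene HERPUD1. The match of SLC3A2 (37 to 45 from the start site) and that of SLC7A1 (8 to 16) lie after the start. That of MARS1 (-5 to 4) spans it. Capitals mark the match, given 5′ to 3′ on the strand of the gene, so that a match on the other strand reads as its reverse complement. Counted from the start site, the matches lie at -68 to -60 in ASNS, -210 to -202 in CHAC1, -34 to -26 in GARS1, -191 to -183 in ATF3 and -177 to -169 in HERPUD1, all before the first transcribed base of that start, and those of CHAC1, GARS1 and HERPUD1 are on the other strand.
ASNS, chr7:97872448-97872496, minus strand: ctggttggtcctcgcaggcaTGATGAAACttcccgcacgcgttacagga
CHAC1, chr15:40953241-40953289, plus strand: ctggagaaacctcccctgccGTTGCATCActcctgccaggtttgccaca
GARS1, chr7:30594824-30594872, plus strand: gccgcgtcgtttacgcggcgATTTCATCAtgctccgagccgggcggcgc
ATF3, chr1:212565196-212565244, plus strand: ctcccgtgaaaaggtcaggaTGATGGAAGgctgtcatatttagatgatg
HERPUD1, chr16:56931945-56931993, plus strand: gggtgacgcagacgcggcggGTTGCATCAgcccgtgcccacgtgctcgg

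The ER stress element, to which NF-Y and ATF6 bind, was searched on both strands as CCAAT, 9 bases of any kind and CCACG. It was found in 7 of 16 genes of the ER arm (CALR, CANX, CRELD2, HSP90B1, HSPA5, PDIA6 and XBP1, in HSP90B1 at 2 places of which the first is printed) and in 0 of 20 of the ATF4 arm, against 0.0916% of all genes, or 0.0769% of all windows. Among them are the genes of the main ER chaperones, and the windows of all these genes but CANX follow. In CANX the same stretch lies at -9 to 10, -151 to -133 or -189 to -171, depending on the start site. At the first of these it spans the start. Capitals mark the element; in CALR and CRELD2 it lies on the other strand and is read as its reverse complement. It lies at -66 to -48 in HSPA5, -194 to -176 in HSP90B1, -52 to -34 in XBP1, -86 to -68 in PDIA6, -225 to -207 in CALR and -80 to -62 in CRELD2. The core TGACGTGG of the unfolded protein response element was in no window of these genes and in 0.729% of all windows. No gene held more than 1 kind of motif, so the matches of different motifs did not overlap. A match of letters is a description and not a measured binding site.
HSPA5, chr9:125241371-125241429, minus strand: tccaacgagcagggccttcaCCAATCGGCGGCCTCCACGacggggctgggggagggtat
HSP90B1, chr12:103930196-103930254, plus strand: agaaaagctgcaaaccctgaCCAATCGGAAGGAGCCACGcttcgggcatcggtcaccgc
XBP1, chr22:28800583-28800641, minus strand: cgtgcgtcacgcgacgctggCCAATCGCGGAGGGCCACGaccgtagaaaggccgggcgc
PDIA6, chr2:10812833-10812891, minus strand: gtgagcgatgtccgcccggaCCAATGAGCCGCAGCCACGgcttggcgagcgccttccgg
CALR, chr19:12938364-12938422, plus strand: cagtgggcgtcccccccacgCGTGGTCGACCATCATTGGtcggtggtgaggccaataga
CRELD2, chr22:49918534-49918592, plus strand: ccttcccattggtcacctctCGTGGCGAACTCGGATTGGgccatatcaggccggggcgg

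Values are on the log2 scale, on which a difference of 1 is a doubling of the signal, and differences are STAG2-deficient minus functional unless stated otherwise. STAG2 itself was lower in deficient H4 arrays (-2.19, adjusted p = 2.37e-05) and in HCT116 knockouts (-2.44, adjusted p = 0.000115, both by limma with Benjamini-Hochberg adjustment), but differed by -0.30 in 42MGBA and did not pass there (adjusted p = 1.00). Directions within 42MGBA therefore rest on the labels alone. The 42MGBA arrays lie on a lower scale, with array medians from 5.0 to 5.05 against 6.23 to 6.3 in the other lines. Levels of 42MGBA are therefore set beside H4 and HCT116 only by percentile, the share of rows of the same array with a lower value. Its log2 differences and ranges are also set beside those of the other lines, though its scale is narrower. The mean interquartile range was 3.18 in 42MGBA, 3.6 in H4 and 3.57 in HCT116. Of the cell type markers, the epithelial genes EPCAM and CDH1 stood at percentiles 97.0 and 80.6 in HCT116 and at or below 26.3 in the other lines. Of the 14 epithelial markers 8 lay above the array median in HCT116 and 5 in each other line, where KRT18 stood at 91.4 in H4 and 87.9 in 42MGBA, and CDH17, LGR5, KRT20 and TSPAN8 were low in HCT116 too. The glial markers GFAP, S100B and OLIG2 lay below the array median in all 3 lines. GFAP stood at 49.8 in H4, 45.6 in 42MGBA and 49.5 in HCT116. These 3 markers alone do not set H4 and 42MGBA apart as glial. VIM and TNC of the same list stood at 96.3 and 75.8 in H4 and at 98.7 and 92.0 in 42MGBA. In HCT116 they stood at 39.3 and 34.1, and VIM is on the mesenchymal list too. The label of glioblastoma was not tested. Of the 13 glial markers 4 lay above the array median in H4, 5 in 42MGBA and 3 in HCT116. Of 12 mesenchymal markers 11 lay above the array median in H4, 12 in 42MGBA and 3 in HCT116.

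By rank, most of the genes stood in the upper part of each line's arrays. The median percentile of the ATF4 arm was 93.6 in H4, 90.2 in 42MGBA and 88.1 in HCT116, and that of the ER arm was 91.1, 92.9 and 88.7 in the same order, against 70.3, 69.5 and 70.3 over all genes tested. ATF3 was much lower, at 47.6, 44.3 and 53.7, as was VLDLR at 55.6, 52.5 and 34.4. Some genes held a rank in 42MGBA outside that of both other lines, with no overlap between arrays. CEBPB, a bZIP partner of ATF4, stood on average at percentile 90.2 in 42MGBA, with arrays from 88.8 to 91.7, against 79.0 in H4 and 72.7 in HCT116. XBP1 stood at 95.2 (94.3 to 96.0) against 87.7 and 88.1. SARS1, the seryl-tRNA synthetase, the chaperone CALR and the secreted protein MANF also lay above both lines in all arrays.

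The reverse held for 6 genes. DNAJC3, a co-chaperone of the ER chaperone BiP that restrains PERK, stood at percentile 63.9 in 42MGBA, with arrays from 60.7 to 68.7, against 82.7 in H4 and 80.7 in HCT116. SLC7A5, the light chain of the large neutral amino acid transporter LAT1, stood at 84.6 (77.8 to 91.7) against 96.9 and 96.2, and the arginine transporter gene SLC7A1 at 74.7 (68.3 to 79.1) against 85.4 and 87.0. PSPH, which completes serine synthesis, HSPA5, which encodes BiP, and PDIA4, a disulphide isomerase, lay below both lines as well. In all, 5 of the 39 genes lay above and 6 below both lines in 42MGBA, where 25% of all genes tested lay above and 25.8% below. These ranks come from arrays on another scale and carry no test.

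H4 and HCT116 share a scale and were compared directly where STAG2 is functional, as corrected H4 clones minus wild-type HCT116 clones. The clearest difference concerned SLC7A11, the exchanger that imports cystine for glutathione synthesis, which was 11.9-fold higher in H4. In the ER arm, the degradation factors EDEM1 and SEL1L were 4.12-fold and 2.08-fold higher in H4 and the chaperone partner SDF2L1 was 3.04-fold lower. Of the 39 genes 18 passed the threshold, an adjusted p under 0.05 by limma with Benjamini-Hochberg adjustment over all genes tested, 14 higher and 4 lower in H4. The lines differ widely, and 52.7% of all genes tested passed in the same comparison, 23.7% higher and 29.0% lower, so this count does not mark the genes out. Of the 18 genes 10 passed whichever array was left out, and the other 8 are named below with their values. The H4 and HCT116 arrays used here also enter the comparisons of STAG2 status within each line. The median difference was 0.30 in the ATF4 arm and 0.20 in the ER arm, against -0.07 over all genes tested.

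Among the transcription factors of the ATF4 arm, DDIT3, which encodes the pro-apoptotic factor CHOP, measured 8.38, 8.58 and 8.62 in H4 clones 8-1, 8-3 and 88-1 and 7.97 and 7.68 in HCT116 clones 24 and 27, and was 1.62-fold higher in H4 (adjusted p = 0.00354). CEBPB measured 8.35, 8.38 and 8.33 against 7.89 and 7.88 and was 1.38-fold higher (adjusted p = 0.00978). ATF3, a stress-induced repressor, went the other way with 6.08, 5.98 and 6.11 against 6.63 and 6.35, 1.35-fold lower in H4 (adjusted p = 0.0310). The groups of these 3 genes did not overlap, which 31.5% of all genes tested shared in the higher and 41.4% in the lower direction. DDIT3 and CEBPB no longer passed without HCT116 clone 27 (0.55 and 0.46, adjusted p = 0.0592 and 0.0542 by limma), nor did ATF3 without 8-1, 8-3 or HCT116 clone 24, with the weakest value without clone 24 (-0.29, adjusted p = 0.262). With clones 8-1 and 8-3 averaged 18 genes passed as well, ATF3 not among them. ATF4 itself differed by -0.28 (SE 0.14) and did not pass (adjusted p = 0.106). A second row of ATF4 differed by -0.43, in the same direction. Much of the control of ATF4 is exerted on its translation, which these arrays do not measure.

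Of the stress effectors, VLDLR, a lipoprotein receptor, measured 6.37, 6.29 and 7.19 in the H4 clones and 5.09 and 5.28 in the HCT116 clones, 2.69-fold higher in H4 (adjusted p = 0.000563). Clone 88-1 was the high one of the H4 clones. CHAC1, which breaks down glutathione, differed by 0.42, TRIB3, a pseudokinase that restrains AKT, by -0.01 and SESN2, a leucine sensor upstream of mTORC1, by -0.07, and none of the 3 passed (adjusted p from 0.0845 to 0.956).

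The serine and folate enzymes differed in both directions between the lines. PHGDH, the first enzyme of serine synthesis from glucose, measured 11.07, 10.87 and 11.29 in the H4 clones and 9.36 and 9.39 in the HCT116 clones and was 3.26-fold higher in H4 (adjusted p = 9.15e-06). PSAT1 and PSPH, which carry out the following steps, differed by 0.28 and 0.31 and did not pass (adjusted p = 0.346 and 0.0760). A second row of PSPH differed by -0.24, so that even the direction of PSPH is uncertain. MTHFD2, the mitochondrial folate enzyme downstream of serine, had 10.38, 10.04 and 10.46 against 11.35 and 11.43 and was 2.14-fold lower in H4 (adjusted p = 0.000202), and its second row gave -0.94. SHMT2, which passes the serine carbon to folate in mitochondria, differed by -0.24 (adjusted p = 0.217).

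ASNS, the asparagine synthetase, measured 9.44, 9.34 and 9.95 in the H4 clones against 8.84 and 8.95, 1.60-fold higher in H4 (adjusted p = 0.0435). PCK2, the mitochondrial enzyme that makes phosphoenolpyruvate, measured 7.31, 7.11 and 7.95 against 6.79 and 6.79, 1.59-fold higher (adjusted p = 0.0385). Clone 88-1 was the highest H4 clone for both enzymes, and without it ASNS differed by 0.50 and PCK2 by 0.42 (adjusted p = 0.161 and 0.165 by limma). Neither passed without HCT116 clone 24 (0.63 and 0.66, adjusted p = 0.173 and 0.131) or 27 (0.73 and 0.67, adjusted p = 0.110 and 0.125), nor ASNS without 8-1 (0.75, adjusted p = 0.0502). In 3 of the 4 transporters no difference passed, with SLC7A5 at 0.05, SLC7A1 at -0.14 and SLC3A2, the heavy chain shared by LAT1 and the cystine exchanger, at 0.30. SLC7A11 stood far apart from them, with 11.96, 12.12 and 12.15 in the H4 clones and 8.29 and 8.70 in the HCT116 clones, a difference of 3.58 (95% interval 3.07 to 4.08, adjusted p = 8.88e-09).

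Of the tRNA synthetases, WARS1, which loads tryptophan, measured 10.37, 10.80 and 10.83 against 9.54 and 9.47 and was 2.24-fold higher in H4 (adjusted p = 3.73e-05). GARS1, which loads glycine, measured 11.98, 11.88 and 12.13 against 11.21 and 11.34, 1.64-fold higher (adjusted p = 0.00140). SARS1 and MARS1, for serine and methionine, differed by 0.13 and -0.28 and did not pass (adjusted p = 0.416 and 0.208).

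In the ER arm the largest difference was that of a degradation gene. EDEM1, a lectin that takes misfolded glycoproteins out of the folding cycle, measured 8.77, 9.03 and 9.07 in the H4 clones and 6.74 and 7.09 in the HCT116 clones, a difference of 2.04 (95% interval 1.68 to 2.40, adjusted p = 1.18e-07). SEL1L, the partner of the ubiquitin ligase HRD1, measured 9.71, 9.81 and 9.92 against 8.76 and 8.75, a difference of 1.06 (adjusted p = 2.01e-06). HERPUD1, an adaptor of the same complex, differed by 0.25 and did not pass (adjusted p = 0.125).

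The folding genes of the ER arm differed in both directions. CANX, the membrane lectin chaperone calnexin, measured 12.79, 12.71 and 12.74 against 12.20 and 12.26, 1.43-fold higher in H4 (adjusted p = 9.98e-05), and its soluble counterpart CALR, calreticulin, measured 11.48, 11.37 and 11.48 against 11.15 and 11.19, 1.21-fold higher (adjusted p = 0.0320). PDIA6, a disulphide isomerase, measured 12.34, 12.24 and 12.36 against 11.96 and 12.01, 1.26-fold higher (adjusted p = 0.00634). CALR did not pass without any 1 of 8-1, 88-1, 24 or 27 (0.25 to 0.29, adjusted p up to 0.143), and PDIA6 did not without clone 24 (0.30, adjusted p = 0.0573). SDF2L1 measured 7.40, 6.89 and 7.10 in the H4 clones against 8.75 and 8.72, 3.04-fold lower (adjusted p = 4.06e-06), and MANF measured 10.18, 9.88 and 10.02 against 10.26 and 10.39, 1.23-fold lower (adjusted p = 0.0392). MANF did not pass without 8-3, 88-1, 24 or 27 (-0.37 to -0.23, adjusted p up to 0.235), whereas SDF2L1 and CANX passed whichever array was left out. The chaperones HSPA5 (0.05) and HSP90B1 (0.14), which encode BiP and GRP94, and the factors XBP1 (-0.02) and ATF6 (0.14) did not pass (adjusted p from 0.255 to 0.916).

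The same comparison in the STAG2-deficient arrays, H4 parental, 10 and 12 minus HCT116 knockouts 7 and 21, uses other cultures and was added after the data had been seen. There 19 of 39 genes passed against 48.1% of all genes tested. Of the 18 genes above, 14 passed with the same sign, and the sign was shared by 36 of 39 genes, against 82.9% of all genes tested. The signs of PSAT1 (-0.13), SESN2 (0.30) and TRIB3 (0.15) were turned there. SLC7A11 differed by 3.27, EDEM1 by 2.41, SEL1L by 0.99, WARS1 by 1.80, MTHFD2 by -0.92 and SDF2L1 by -1.07. PHGDH differed by 0.76, against 1.70 with functional STAG2, and that gap, which is the interaction of line and STAG2, did not pass (adjusted p = 0.188 by limma). ASNS (0.15), PCK2 (0.34), ATF3 (-0.35) and MANF (-0.25) did not pass there (adjusted p = 0.680, 0.293, 0.0800 and 0.0828).

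**Figure D1:**
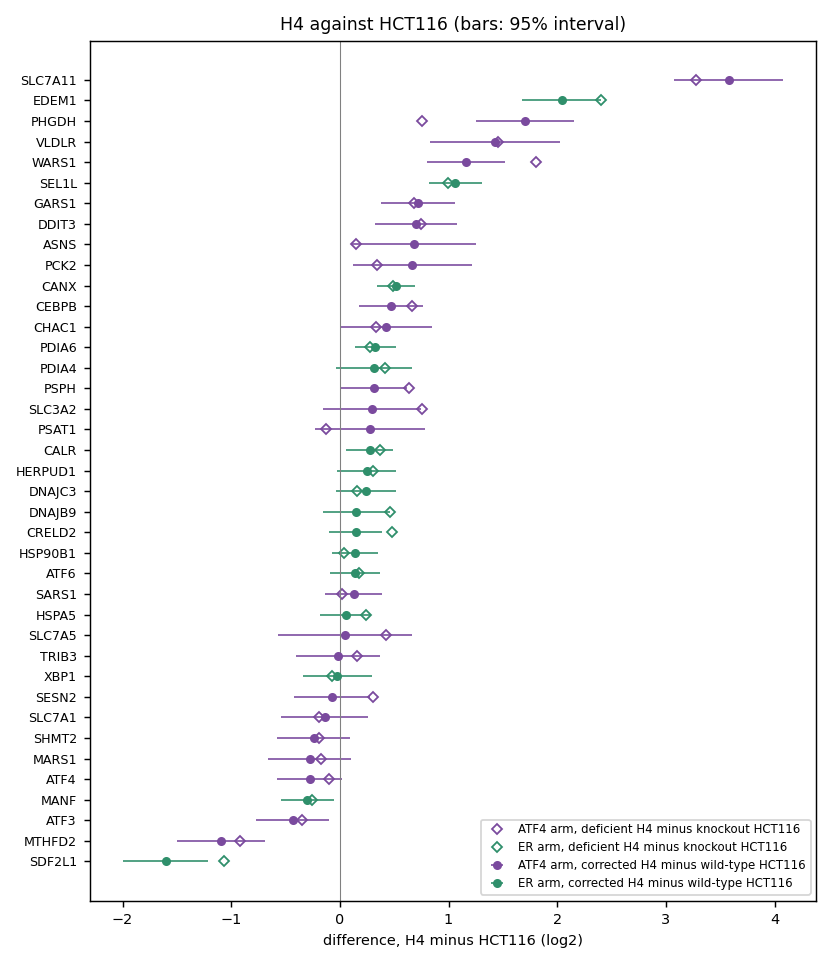
Each of the 39 genes is plotted by its log2 difference between H4 and HCT116, with filled points and 95% intervals for corrected H4 minus wild-type HCT116 and open diamonds for deficient H4 minus knockout HCT116, coloured by arm. SLC7A11 and EDEM1 lie farthest to the right in both, at 3.58 and 2.04 for the filled points, and SDF2L1 farthest to the left.

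Within 42MGBA, the arrays labelled deficient had lower values than those labelled corrected for nearly the whole ATF4 arm, though no single gene passed. Of its 23 genes 22 had a difference below 0, with a median of -0.43, where 60.3% of all genes tested were below 0 with a median of -0.03. In the ER arm 12 of 16 were below 0, with a median of -0.08. No gene passed, 0 of 39 by limma as 0% of all genes tested did (adjusted p = 1.00 for each). At an unadjusted p under 0.05 there were 15 genes of the ATF4 arm and 1 of the ER arm, all lower, against 2.90% of all genes tested that were lower at this level. Without 92-6 the median of the ATF4 arm was -0.25, with 21 of 23 genes below 0 and 5 at that level. Without 53-1 it was -0.55, with 22 below 0 and 21 at that level. The shares of all genes tested are those of the full fit and are not given with an array left out. These counts therefore show only how the arm depends on single arrays. STAG2 was not shown to differ in this line, so these values compare clones under labels that its level does not check. The fit gives each gene 1 spread for all 3 lines. Over the 6 arrays of a line, the ATF4 arm had a median range of 0.87 in 42MGBA and 0.51 in H4. That range also takes in the difference between the labelled groups, so it is no measure of the spread within a group. Where the spread within the 42MGBA groups exceeds the shared one, intervals may be too narrow and unadjusted p-values too low. The genes were also chosen with earlier results of these data known.

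The amino acid enzymes had the largest differences of the ATF4 arm by group, with a median of -0.58 over 7 genes and all 7 below 0. PSAT1 measured 8.06, 8.10 and 8.30 in the parental population and clones 53 and 92, and 8.39, 8.90 and 9.47 in clones 53-1, 53-7 and 92-6. Every deficient array lay below every corrected array, but 53-1 was only slightly above clone 92, and 92-6 was the highest. The difference was -0.77 (95% interval -1.22 to -0.32, unadjusted p = 0.00247 by limma). The standard deviation was 0.13 in the deficient and 0.54 in the corrected arrays, while the fit used 1 spread for all 3 lines.

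SHMT2 measured 8.60, 8.43 and 8.59 in the deficient arrays and 8.55, 9.18 and 9.24 in the corrected arrays, a difference of -0.45 (unadjusted p = 0.00599 by limma). MTHFD2 measured 8.24, 7.92 and 8.11 against 8.17, 8.74 and 8.94, a difference of -0.52 (unadjusted p = 0.00790 by limma). In both of these folate genes clone 53-1 lay among the deficient arrays, while 53-7 and 92-6 lay above them. Without 53-1 SHMT2 passed (-0.67, adjusted p = 0.0327 by limma). PHGDH measured 8.96, 8.997 and 9.19 against 9.26, 9.65 and 9.96 without overlap (-0.58), and ASNS 6.90, 6.89 and 6.95 against 6.78, 7.79 and 7.97 (-0.60), where 53-1 was the lowest of all 6 arrays.

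The tRNA synthetases went the same way in all 4 genes, with a median of -0.39. SARS1 measured 9.75, 9.60 and 9.77 in the deficient and 9.82, 10.10 and 10.27 in the corrected arrays, with no overlap and a difference of -0.35 (unadjusted p = 0.00568 by limma). MARS1 measured 8.21, 7.90 and 8.09 against 8.12, 8.74 and 8.81, a difference of -0.49 (unadjusted p = 0.00745 by limma). WARS1 did not overlap either, with 8.91, 8.99 and 9.07 against 9.19, 9.36 and 9.72. The glutathione enzyme CHAC1 measured 5.58, 5.38 and 5.66 against 5.73, 6.28 and 6.28, again without overlap (-0.56, unadjusted p = 0.00649 by limma).

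The 4 amino acid transporters had a median difference of -0.42, with SLC7A5 at -0.65 and SLC7A11 at -0.55 but SLC7A1 at -0.04. The parental array, at 7.60 for SLC7A5, lay above corrected clone 53-1 at 6.98. The transcription factors had smaller differences, with ATF4 at -0.24, DDIT3 at -0.26, CEBPB at -0.27 and ATF3, the only gene of the arm not below 0, at 0.01. In all, 5 genes of the ATF4 arm (PSAT1, PHGDH, CHAC1, SARS1 and WARS1) and 2 of the ER arm (HERPUD1 and PDIA6) had deficient arrays entirely below the corrected ones, against 6.33% of all genes tested. Of the 7 genes whose window holds the amino acid response element core, ASNS, CHAC1, GARS1 and MARS1 had an unadjusted p under 0.05 by limma in 42MGBA. ATF3, SLC3A2 and SLC7A1 did not. In the whole ATF4 arm 15 of 23 genes were at that level, so the genes with the core do not stand out. The whole arm includes these 7 genes, and only 20 of the 23 had a window to search.

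The differences of the ER arm were smaller. HERPUD1 had the largest difference of its genes, with 8.08, 8.07 and 8.07 in the deficient and 8.23, 8.31 and 8.68 in the corrected arrays (-0.33, unadjusted p = 0.0124 by limma). The 3 deficient arrays were nearly equal, and 92-6 stood above the other corrected clones. HSPA5 differed by -0.07, HSP90B1 by 0.04, CALR by -0.10, CANX by -0.06 and PDIA4 by 0.00. XBP1 differed by -0.23 and SDF2L1 by -0.22, with overlapping arrays.

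The clones labelled corrected were not alike. Relative to the mean of the line, the median of the ATF4 arm was 0.31 in clone 53-7 and 0.47 in 92-6, where 22 and 23 of the 23 genes lay above the line mean. In clone 53-1, labelled corrected too, it was -0.16 and 0 of 23 genes lay above the mean, which placed 53-1 with the deficient arrays at -0.13 (parental), -0.34 (clone 53) and -0.16 (clone 92). The median deviation of all genes tested was 0.03 in 53-7, 0.02 in 92-6 and -0.0009 in 53-1. Clone 53-7 exceeded 53-1 in 22 of 23 genes by a median of 0.45, although both carry the number of clone 53, where 56.4% of all genes tested were higher in 53-7 with a median of 0.03. The median of the ER arm deviated by 0.12 or less in every 42MGBA array. Its genes also leaned towards 53-7, which exceeded 53-1 in 13 of 16 by a median of 0.16. ER arm genes above the line mean numbered 14 of 16 in 53-7, 10 in 92-6 and 6 in 53-1. They numbered 13 in the parental array, 3 in clone 53 and 1 in clone 92.

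Set against its own post-Cre clones, clone 53 lay below the mean of 53-1 and 53-7 in 23 of 23 genes of the ATF4 arm (median -0.36) and clone 92 below 92-6 in 22 of 23 (median -0.64). Taken singly, clone 53 lay below 53-1 in 17 of 23 genes (median -0.13) and below 53-7 in 23 of 23 (median -0.58). Over all genes tested 57.6% were lower in clone 53 than in the mean of 53-1 and 53-7, and 59.9% lower in clone 92 than in 92-6. Of the 12978 genes tested, 7017 were lower in clone 53 than in 53-1 and 7744 lower than in 53-7. The parental population lay below the mean of the post-Cre clones in 20 of 23 genes (median -0.31, against 49.9% of all genes tested). In the ER arm the same counts were 14, 12 and 5 of 16. The range of a gene over the 6 arrays had a median of 0.87 in the ATF4 arm in 42MGBA and 0.51 in H4, and it was wider in 42MGBA for 20 of 23 genes, where 40.5% of all genes tested were. For the ER arm the medians were 0.32 and 0.34.

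**Figure D2:**
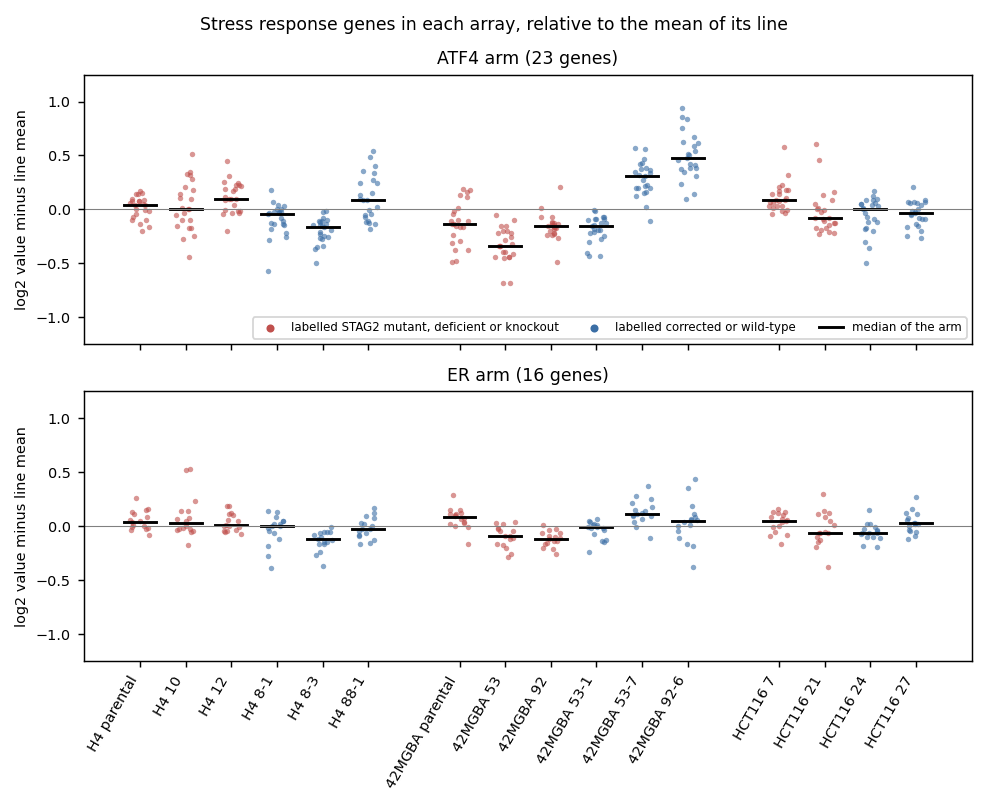
For each of the 16 arrays, every point is 1 gene's log2 value minus its mean over the arrays of the line, with the ATF4 arm (23 genes) above and the ER arm (16 genes) below, a black bar at the median and colour by the STAG2 label. In 42MGBA the ATF4 arm is high in 53-7 and 92-6 (medians 0.31 and 0.47) and low in the other 4 arrays, 53-1 included. The medians of the ER arm stay within 0.12 of 0 there.

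In H4 the largest difference was that of WARS1, 0.55 above the corrected clones, and no gene passed. Of the 39 genes 0 passed by limma, against 3.31% of all genes tested, and 4 had an unadjusted p under 0.05, all higher, against 8.78% of all genes tested. The difference was above 0 for 19 of 23 genes of the ATF4 arm (median 0.08) and 13 of 16 of the ER arm (median 0.14), where 54.4% of all genes tested were above 0 with a median of 0.02.

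WARS1 measured 11.001, 11.46 and 11.19 in the parental population and clones 10 and 12, and 10.37, 10.80 and 10.83 in clones 8-1, 8-3 and 88-1. The groups did not overlap, with clone 10 the highest and 8-1 the lowest, and the difference was 0.55 (95% interval 0.23 to 0.87, adjusted p = 0.0610 by limma). Without the parental array it passed (0.66, adjusted p = 0.0330), and over all alternatives the adjusted p ran up to 0.216. DNAJB9, a co-chaperone that helps BiP to repress IRE1, measured 7.09, 7.50 and 6.92 against 6.70, 6.83 and 6.81, a difference of 0.39 (adjusted p = 0.121). EDEM1 measured 9.07, 9.68 and 9.27 against 8.77, 9.03 and 9.07, with a small overlap and a difference of 0.39 (adjusted p = 0.202). Clone 10 was the highest array for all 3 genes.

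PSPH measured 10.03, 10.001 and 9.95 in the deficient and 9.82, 9.59 and 9.76 in the corrected arrays (0.27, adjusted p = 0.305), and its second row differed by 0.42. CRELD2, a secreted ER stress protein, measured 8.72, 8.72 and 8.56 against 8.51, 8.43 and 8.49 (0.19, adjusted p = 0.378). PHGDH, at the head of the same serine pathway as PSPH, leaned the other way, with 10.97, 10.45 and 10.69 against 11.07, 10.87 and 11.29, overlapping arrays and a difference of -0.37 (adjusted p = 0.349). Deficient arrays lay entirely above corrected ones for 8 genes (WARS1, PSPH, SLC7A5, SLC3A2, ATF6, DNAJB9, PDIA4 and CRELD2) and entirely below for 1, HERPUD1, against 12.1% and 8.68% of all genes tested.

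The lowest H4 array in both arms was a corrected clone. In 8-3, 0 of 23 genes of the ATF4 arm and 0 of 16 of the ER arm lay above the mean of the line, with medians of -0.16 and -0.12. The median deviation of all genes tested in 8-3 was -0.02. Clone 88-1, corrected as well, had the highest ATF4 arm of the corrected clones (0.09), led by its amino acid enzymes (0.34), and the deficient arrays ran from 0.00 to 0.10. Without 8-3 the median difference of the ATF4 arm was -0.01 with 11 of 23 genes above 0, and without 88-1 it was 0.22 with 22 above 0. That of the ER arm was 0.10 and 0.16 in the same order, with 11 and 13 of 16 genes above 0.

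In HCT116 the largest differences were in the amino acid genes ASNS, SLC7A11 and PHGDH, from 0.57 to 0.61 above the wild-type clones, and no gene passed. Of the 39 genes 0 passed by limma, against 0.131% of all genes tested, and 2 had an unadjusted p under 0.05, both higher, against 3.75% of all genes tested. The median difference was 0.01 in the ATF4 arm and 0.04 in the ER arm, against -0.01 over all genes tested, and 0.31 in the 7 amino acid enzymes. PHGDH measured 9.63 and 10.26 in knockout clones 7 and 21 and 9.36 and 9.39 in wild-type clones 24 and 27. The difference of 0.57 (95% interval 0.07 to 1.07, adjusted p = 0.582 by limma) spans a wide interval, and only clone 21 lay well above the wild-type clones.

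SLC7A11 measured 9.36 and 8.80 in the knockouts against 8.29 and 8.70, a difference of 0.58 (adjusted p = 0.619 by limma), with clone 21 near the higher wild-type clone. ASNS measured 9.34 and 9.66 against 8.84 and 8.95, a difference of 0.61 (adjusted p = 0.651 by limma) with both knockouts above both wild-type clones. PSAT1 was tight within each group, at 10.39 and 10.34 against 10.03 and 10.07, and differed by 0.31. The higher knockout was clone 21 for PHGDH and ASNS and clone 7 for SLC7A11. The median of the ATF4 arm was -0.10 without clone 7 and 0.09 without clone 21.

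In the ER arm of HCT116, SEL1L measured 8.78 and 9.16 against 8.76 and 8.75 (0.22, adjusted p = 0.714 by limma) and DNAJC3 8.73 and 8.69 against 8.42 and 8.55 (0.22, adjusted p = 0.749 by limma). HERPUD1 measured 9.31 and 9.41 against 9.43 and 9.74, a difference of -0.23 (adjusted p = 0.744 by limma). Only clone 21 was high for SEL1L, and only clone 27 for HERPUD1. Knockout arrays lay entirely above wild-type arrays for 11 genes and entirely below for 3, against 18.5% and 22.1% of all genes tested. Across the 3 lines, the 95% interval of the difference included 0 for 8 of 23 genes of the ATF4 arm in 42MGBA and for 21 in each of H4 and HCT116. In the ER arm it included 0 for 15, 14 and 16 of 16 genes in 42MGBA, H4 and HCT116. All these intervals rest on 1 spread per gene for the 3 lines.

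**Figure D3:**
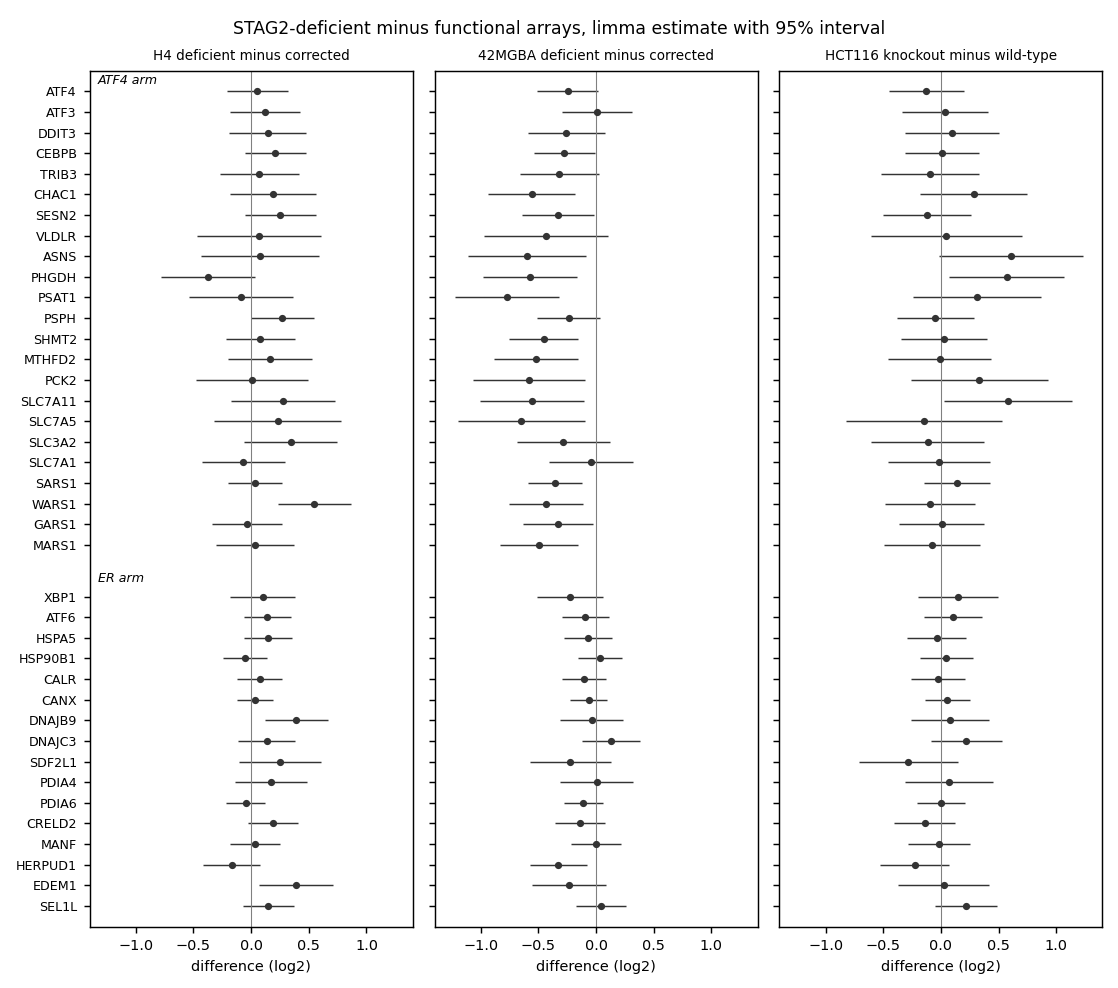
The log2 difference of each gene between STAG2-deficient and functional arrays is drawn with its 95% interval from limma, with 1 panel per line and the ATF4 arm above the ER arm. In the ATF4 arm 22 of 23 points lie left of 0 in 42MGBA, and 19 of 23 lie right of 0 in H4 and 13 of 23 in HCT116.

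HERPUD1, whose window is printed above with an amino acid response element core, was the only one of the 39 genes whose deficient arrays lay below the functional arrays in all 3 lines, and no gene lay above in all 3. Over all genes tested 10 lay below in all 3, or 0.0771%, and 0.0616% lay above. In H4 it measured 9.72, 9.57 and 9.71 against 9.83, 9.75 and 9.92, and the differences were -0.17, -0.33 and -0.23 in H4, 42MGBA and HCT116. The mean of the 3 lines was -0.24 (95% interval -0.39 to -0.09, unadjusted p = 0.00448, adjusted p = 0.255 by limma), which did not pass. On the mean of the 3 lines, made from the same arrays as the separate lines, 0 of 39 genes passed by limma, against 0.139% of all genes tested, and 3 had an unadjusted p under 0.05, against 9.86%. The others were DNAJC3 (0.16) and SEL1L (0.14), both higher, with adjusted p = 0.489 and 0.502.

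Whether the lines differed in their STAG2 difference was tested as an interaction, again from the same arrays. No gene passed, with 0 of 39 by limma in each of the 3 pairs of lines, against 0.254% of all genes tested for H4 against 42MGBA, 0.293% for H4 against HCT116 and 0.0231% for 42MGBA against HCT116. At an unadjusted p under 0.05 there were 16 genes, all higher in H4, in the first pair, 2 in the second and 8, all lower in 42MGBA, in the third, against 6.99%, 13.5% and 3.11% of all genes tested. WARS1 came nearest, with a difference of 0.98 (95% interval 0.53 to 1.43, adjusted p = 0.0847 by limma) between H4 and 42MGBA. Without the parental H4 array it passed (1.09, adjusted p = 0.0312), and without 42MGBA clone 53-1 SHMT2 passed in the same pair (0.75, adjusted p = 0.0307). PHGDH differed by -1.14 between 42MGBA and HCT116 (adjusted p = 0.686 by limma) and by -0.94 between H4 and HCT116 (adjusted p = 0.188 by limma). The opposite signs of the amino acid genes in 42MGBA and HCT116 (PSAT1 -0.77 and 0.31, ASNS -0.60 and 0.61, SLC7A11 -0.55 and 0.58) were therefore not shown to differ.

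**Figure D4:**
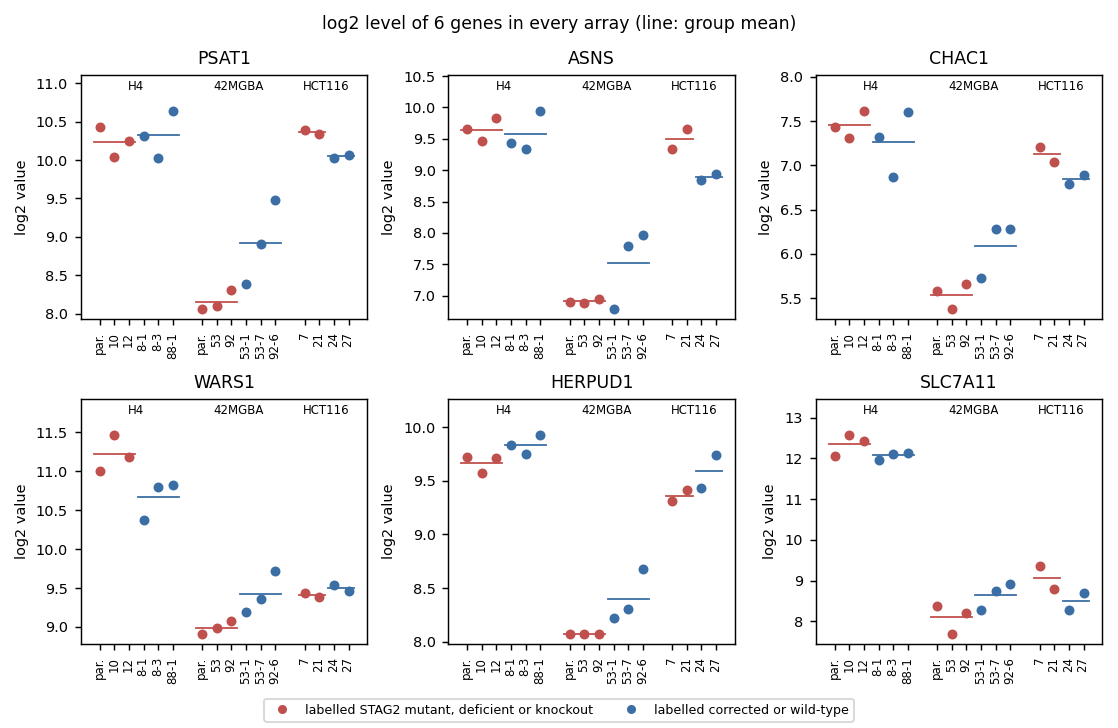
The log2 values of PSAT1, ASNS, CHAC1, WARS1, HERPUD1 and SLC7A11 are shown for every array, 1 panel per gene, with a line at each group mean and colour by the STAG2 label; 42MGBA lies on a lower scale than the other lines. PSAT1, ASNS and CHAC1 are high in 42MGBA clones 53-7 and 92-6 and low in 53-1, WARS1 is higher in all 3 deficient H4 arrays, and SLC7A11 is near 12 in H4 and between 8.29 and 9.36 in HCT116.

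Further genes of these pathways, listed beyond the 40, were read in the same fit. They form 7 lists with 138 genes tested. In the comparisons of STAG2 status 0 of the 138 passed by limma in any line, and at an unadjusted p under 0.05 there were 15 higher and 5 lower in H4 (8.78% and 7.58% of all genes tested), 1 higher and 8 lower in 42MGBA (1.05% and 2.90%) and 2 higher and 3 lower in HCT116 (3.75% and 4.08%). In 42MGBA, where 60.3% of all genes tested lay below 0, 20 of 25 further ATF4 pathway genes lay below 0 (median -0.14, 3 at an unadjusted p under 0.05, all lower), as did 14 of 15 further cytosolic tRNA synthetases (median -0.16, 4 at that level) and 27 of 39 further ER folding and degradation genes (median -0.05, 0 at that level). In H4, 30 of 39 further ER genes lay above 0 (median 0.12, 7 higher and 2 lower at that level), against 54.4% of all genes tested, and in HCT116 22 of 39 did (median 0.02), against 46.6%.

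Between H4 and HCT116 with functional STAG2, 37 of the 138 genes were higher and 39 lower, beside 23.7% and 29.0% of all genes tested. Of 25 further ATF4 pathway genes 10 were higher and 1 lower in H4, led by the stress cofactor NUPR1 (3.13, adjusted p = 5.88e-09), and the 1 lower was the proline enzyme PYCR1 (-1.29). Of 39 further ER genes 16 were higher and 6 lower, with the collagen-folding isomerase FKBP14 at 2.35, the cargo receptor LMAN1 at 1.11 and the coat proteins SEC24D at 1.46 and SEC23B at -0.97. Of 10 folate and glycine enzymes 5 were lower and 0 higher, among them MTHFD1L (-0.98) and GLDC (-0.95).

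The counts of the remaining lists are of genes past the threshold, beside 23.7% higher and 29.0% lower of all genes tested. By sign alone, 56.4% of all genes tested had a difference below 0. Of 15 further cytosolic tRNA synthetases 2 were higher and 5 lower, with HARS1 at -0.66, QARS1 at -0.57 and CARS1 at 0.62. Of 16 mitochondrial tRNA synthetases 3 were higher and 6 lower, with MARS2 at -1.24. Of 17 cytosolic heat shock genes, which answer misfolded protein outside the ER, 10 were lower and 1 higher, the small heat shock gene HSPB8 (2.81). Among 16 stress sensors and eIF2 factors 5 were higher and 6 lower, with the kinase of the haem response EIF2AK1 at 0.58 and EIF2B4, a subunit of the eIF2 exchange factor, at -1.03.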

How the data were processed

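RNA of 16 cultures was measured on Affymetrix Human Gene ST arrays. The authors deposited log2 signals of 33297 rows, for which the submitters' processing notes name RMA and Expression Console; the versions and the genome build are not given in the sources used here. Of the rows, 19460 were annotated to 1 gene, 1754 to several and 12083 to none; the 18417 single genes were each given their row of highest mean. The 12978 genes above the array median on at least 2 arrays were fitted together by group with limma 3.58.1 (lmFit, contrasts.fit and eBayes, R 4.3.3), two-sided, with Benjamini-Hochberg adjustment and a threshold of 0.05. The arrays carry no depth. The code was tested on simulated data.

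The genes and lists were chosen with earlier results of these data known. Values per array were given for genes past the threshold and for the 6 of smallest p in each comparison, and further lists by up to 4 genes past the threshold. RefSeq promoter windows (GRCh38.p14) were searched by letters. Alternatives were other scalings, filters and fits, and each array left out.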

Additional observations from a re-analysis of the deposited data

How the results depend on the processing

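Values were recomputed for the genes past the threshold and the 6 of smallest p in each comparison; of 1055 such values 1019 kept their direction and side of the threshold, and none changed sign. Of 320 counts and arm medians 313 stayed close to the reported value. For a median, close meant a move smaller than its standard deviation between arrays of a group, 0.17 for the ATF4 arm and 0.07 for the ER arm. The tolerance of the ATF4 arm exceeds its reported medians in H4 (0.08) and HCT116 (0.01). The sign of 4 medians near 0 turned under some alternatives (the ATF4 arm in H4 and HCT116, and the ER arm in HCT116 and on the mean of the lines). In H4, 1 gene passed without the parental arrays of both lines (WARS1, 0.66, adjusted p = 0.0402 by limma). With 1 array left out, the genes past the threshold numbered 0 to 1 in H4, 0 to 1 in 42MGBA, 0 to 1 for H4 against 42MGBA and 12 to 17 between H4 and HCT116, and 0 in HCT116, on the mean of the lines and in the other 2 interactions. The median of the ATF4 arm in 42MGBA then ran from -0.55 to -0.25. Between the lines the ER arm had a median of 0.29 in the STAG2-deficient arrays, an alternative chosen after seeing the data, against 0.20. The labels pair clone 53 with 53-1 and 53-7, and 92 with 92-6; with that parent clone as a replicate block in 42MGBA, 0 genes passed, the ATF4 arm had a median of -0.53 and the ER arm one of -0.13, so the block changed no call. Fitting each line alone cannot give the mean of the lines or the interactions. The sign counts and counts at an unadjusted p under 0.05 with 1 array left out were also chosen after seeing the data. They carry no share of all genes tested. A difference that did not pass is not shown to be absent.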
